A study of Mus musculus with 207 samples.

Results

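The genes described here are 31 members of the amino acid response, the set of genes switched on by the transcription factor ATF4 when a cell runs short of amino acids or when its protein folding is disturbed. They were taken from a list of symbols, matched to Ensembl gene IDs, and all 31 had a row in each of the 3 tissue tables, out of 55536 genes in the jejunum and liver tables and 21883 in the hypothalamus table. The tissues came from C57BL/6 mice, the common black laboratory strain, fed 1 of 6 diets that combined a protein source with a fat level. The protein source is labelled CAS or WPI, which, from knowledge of the study, stand for casein and whey protein isolate, always at protein level 30, and the fat level is labelled FAT-20, FAT-40 or FAT-55, with no unit given. Each diet held 11 or 12 mice for jejunum and liver and 10 to 12 for hypothalamus, which gave 70, 70 and 67 libraries of bulk RNA from 74 separately identified animals, most of them sampled in all 3 tissues. Some identifiers are spelled differently between tissues, such as H6B in liver and HL6B in hypothalamus, so some of the 74 may be the same animal. On CAS FAT-20, a jejunum and a liver library matched as one mouse carry different numbers in their titles. The labels give no sex, age, feeding time, hour of death or sequencing batch. Dropping the last digit of a mouse identifier leaves a stem that a few mice have in common, with 24 stems per tissue and 4 per diet. The labels do not explain stems, but every stem lies within a single diet, so mice of one stem may not be independent.

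In this pathway, uncharged transfer RNAs activate the kinase GCN2 (Eif2ak4), and unfolded protein in the endoplasmic reticulum (ER) activates the kinase PERK (Eif2ak3). Both phosphorylate the translation initiation factor eIF2alpha, which slows protein synthesis in general while raising translation of Atf4. ATF4 then pairs with C/EBP family proteins on composite DNA elements and raises the genes for amino acid transporters, aminoacyl-tRNA synthetases, serine and asparagine synthesis and several brakes on growth signalling. Because ATF4 is controlled mainly through translation and through the stability of its protein, the Atf4 transcript level is not a measure of its activity.

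The composite element was looked for as TGATGNAA on either strand in windows from 250 bases before to 50 bases after each annotated transcript start in RefSeq, mouse build GRCm38.p6. The 26 members with an entry had 30 windows, of which 9, each of a different gene, held at least 1 match, against 1304 of all 32851 windows in the table (3.97%). Aldh1l2, Slc7a5, Cars, Nars and Eif4ebp1 had no window in the table. The 6 windows shown are those with the smallest adjusted p among members with a match that passed the test in at least 2 of the comparisons below, and Trib3, Pck2 and Chac1 also held a match. They are written 5′ to 3′ on the strand of the gene, and capitals mark the matches. The Nupr1 window is chr7:126625421-126625720 on the minus strand, with its match 110 bases before the start. The Asns window, chr6:7693160-7693459 on the minus strand, has its match 23 bases before the start. Slc7a11 (chr3:50443564-50443863, minus strand) has a pair of matches, on opposite strands, that begin 66 and 47 bases before the start. Gars (chr6:55037751-55038050, plus strand) has a match 30 bases before the start. Aars (chr8:111033592-111033891, plus strand) has matches 112 bases before and 10 bases after the start. Vldlr (chr19:27216770-27217069, plus strand) has a match 200 bases before the start. A match describes the letters of the window and does not show that ATF4 binds there.
Nupr1: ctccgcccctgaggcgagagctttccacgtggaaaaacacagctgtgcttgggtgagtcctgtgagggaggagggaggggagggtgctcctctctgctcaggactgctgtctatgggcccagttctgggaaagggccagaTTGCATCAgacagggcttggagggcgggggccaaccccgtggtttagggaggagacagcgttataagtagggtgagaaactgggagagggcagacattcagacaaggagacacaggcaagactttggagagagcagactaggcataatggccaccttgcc
Asns: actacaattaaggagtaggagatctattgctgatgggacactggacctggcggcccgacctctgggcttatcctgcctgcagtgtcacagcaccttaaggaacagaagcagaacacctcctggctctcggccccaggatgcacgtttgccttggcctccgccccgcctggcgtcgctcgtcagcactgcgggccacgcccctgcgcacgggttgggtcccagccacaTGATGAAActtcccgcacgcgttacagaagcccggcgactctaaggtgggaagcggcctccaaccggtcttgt
Slc7a11: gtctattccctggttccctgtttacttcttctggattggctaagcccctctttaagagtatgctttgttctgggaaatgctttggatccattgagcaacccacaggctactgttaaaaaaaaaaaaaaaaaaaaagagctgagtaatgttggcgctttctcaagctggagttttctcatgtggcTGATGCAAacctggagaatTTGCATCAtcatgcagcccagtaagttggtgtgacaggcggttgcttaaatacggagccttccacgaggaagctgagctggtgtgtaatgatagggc
Gars: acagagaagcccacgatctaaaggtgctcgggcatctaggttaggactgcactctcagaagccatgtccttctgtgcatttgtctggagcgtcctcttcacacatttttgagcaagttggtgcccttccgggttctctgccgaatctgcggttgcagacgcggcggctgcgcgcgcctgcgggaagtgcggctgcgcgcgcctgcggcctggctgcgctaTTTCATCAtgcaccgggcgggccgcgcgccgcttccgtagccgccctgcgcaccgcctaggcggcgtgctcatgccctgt
Aars: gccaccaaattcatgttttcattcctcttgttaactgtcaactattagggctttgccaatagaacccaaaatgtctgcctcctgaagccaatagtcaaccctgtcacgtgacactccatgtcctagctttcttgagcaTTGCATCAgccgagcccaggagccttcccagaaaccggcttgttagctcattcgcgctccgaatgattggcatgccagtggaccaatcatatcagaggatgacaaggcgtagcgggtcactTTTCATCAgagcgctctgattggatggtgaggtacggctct
Vldlr: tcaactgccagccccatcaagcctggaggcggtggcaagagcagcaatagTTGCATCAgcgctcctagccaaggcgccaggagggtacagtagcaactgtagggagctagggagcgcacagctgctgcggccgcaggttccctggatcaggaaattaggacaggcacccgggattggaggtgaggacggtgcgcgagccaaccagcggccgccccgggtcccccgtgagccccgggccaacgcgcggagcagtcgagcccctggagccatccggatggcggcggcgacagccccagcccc

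Jejunum libraries held 17.5 to 23.8 M counted reads, liver libraries 21 to 41 M and hypothalamus libraries 14.4 to 16.1 M. None of the markers listed for enterocytes, hepatocytes and hypothalamic neurons was at 0 in the tissue of that label. In the hypothalamus, 11 libraries stood apart on the first principal component of all genes, and 9 of them came from the FAT-20 diets (4 CAS, 5 WPI), so counts in that tissue are also given without them. Another oddity there covered a whole group. The 40 genes with the smallest p for WPI against CAS at FAT-55 were all lower on WPI, with a median GC content of 56.2% against 50.4% for all genes tested. In the liver, WPI FAT-40 replicate 2 held pancreatic acinar RNA, with a summed marker level of 1405 CPM (read counts scaled by library size) against a group median of 24.9 CPM. A gene was called changed when its adjusted p (Benjamini-Hochberg, over every gene tested there) was under 0.05, by edgeR's quasi-likelihood test for jejunum and liver counts and by limma for hypothalamus values. Of the 31 members, 31 were tested in jejunum and hypothalamus and 29 in liver, where Slc7a11 and Stc2 were too low. Some members share bases with a gene on the opposite strand, among them Atf5 (Nup62, Il4i1), Ddit3 (Mars), Psph (Cct6a), Shmt2 (Ndufa4l2), Ppp1r15a (Tulp2) and Aldh1l2 (D10Wsu102e). Whether reads were counted by strand is not given in the sources used here, so their values could include reads of the partner. In bulk RNA, fewer cells of a type and less RNA per cell cannot be told apart.

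Relative to gene length, the members spanned a wide range within each tissue, here as mean CPM per kilobase ± SD over all libraries of the tissue. Slc3a2, the heavy chain shared by several amino acid exchangers, was the most abundant in jejunum at 129 ± 19.96, followed by Atf4 at 73.8 ± 10.8. The lowest there was the cystine importer Slc7a11 at 0.0989 ± 0.104. In liver, the transcription factor Atf5 led at 87.5 ± 38.5 and did not differ beyond its spread from the mitochondrial serine hydroxymethyltransferase Shmt2 at 74.6 ± 12.03. Phgdh, which commits glucose carbon to serine, was among the lowest 4 members in liver at 0.101 ± 0.0502. The hypothalamus was led by synthetases, with Nars at 60.3 ± 8.73, Sars at 50.7 ± 7.80 and Gars at 47.6 ± 4.72, followed by Phgdh at 44.3 ± 5.59. Trib3 at 0.489 ± 0.175 and Stc2 at 0.494 ± 0.151 were lowest in the hypothalamus and did not differ from each other beyond their spread. Tissues were normalised separately, so these orders hold within a tissue.

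In the jejunum, the module moved mostly down when casein diets went from FAT-20 to FAT-40 or FAT-55. At FAT-40, 2 members rose and 14 fell of 31 tested (51.6%), against 25.1% of all genes called in either direction with 12.7% higher and 12.4% lower. At FAT-55, 3 rose and 13 fell, against 27.7% of all genes called, 14.4% higher and 13.3% lower. The median log2 change of the members at FAT-40 was -0.23, and of all genes tested -0.03. Of the enzymes of serine, one-carbon and asparagine synthesis, 7 of 8 fell and none rose at each of these fat levels, and of Chac1, Stc2 and Vldlr, 2 of 3 fell at FAT-40 and 3 of 3 at FAT-55. With counts summed by identifier stem, 11 members were called at either fat level. The share of all genes called in that fit is not given here. Both comparisons use the same CAS FAT-20 libraries, so they are not independent of each other.

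**Figure D1:**
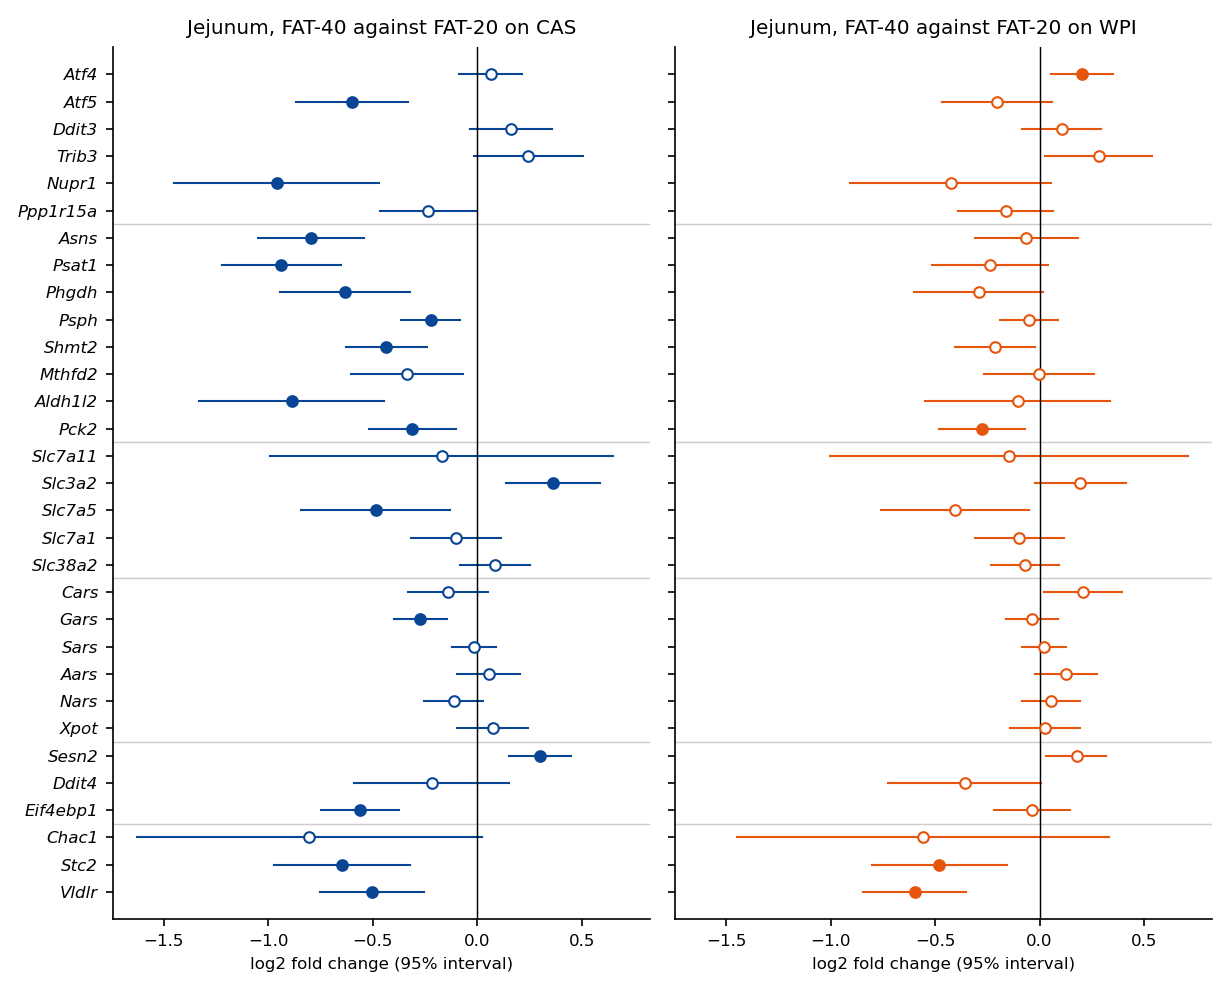
Log2 fold change of each of the 31 members in jejunum, FAT-40 against FAT-20, on CAS and on WPI diets, with 95% confidence intervals; filled points passed an adjusted p of 0.05. On CAS, 2 members rose and 14 fell, and on WPI 1 rose and 3 fell.

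Psat1, the aminotransferase of serine synthesis, ran from 7.91 to 18.5 CPM on CAS FAT-20 (median 12.2), from 5.18 to 8.68 on CAS FAT-40 (median 6.91) and from 5.85 to 14.6 on CAS FAT-55 (median 7.80). All 12 FAT-40 libraries were below the FAT-20 median, and the groups overlapped only where the highest FAT-40 libraries met the lowest FAT-20 ones. The fitted log2 change was -0.94 ± 0.15 (SE, adjusted p = 7.29e-06) at FAT-40 and -0.68 ± 0.15 (adjusted p = 0.00046) at FAT-55.

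Asparagine synthetase (Asns), which makes asparagine from aspartate and glutamine, ran from 22.7 to 48.3 CPM on CAS FAT-20 (median 34.7) and from 15.8 to 25.2 on CAS FAT-40 (median 20.6). Asns lies at chr6:7675169-7693254 (GRCm38, minus strand). Again all 12 FAT-40 libraries were below the FAT-20 median, and the fitted log2 change was -0.80 ± 0.13 (adjusted p = 1.34e-05). At FAT-55 the level ran from 18.5 to 45.5 CPM (median 25.6), and the change of -0.38 ± 0.13 had an adjusted p of 0.0239. On WPI, Asns was already lower at FAT-20, from 17.7 to 38.6 CPM (median 24.4), with 11 of 12 libraries below the CAS FAT-20 median and a log2 difference of -0.54 ± 0.13 from it (adjusted p = 0.00502). It did not pass the test from there to WPI FAT-40 (-0.06 ± 0.13) or WPI FAT-55 (-0.07 ± 0.13). The FAT-55 change differed between the protein sources by 0.31 ± 0.18 (adjusted p = 0.862), which did not pass the test either.

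Aldh1l2, the mitochondrial formyltetrahydrofolate dehydrogenase, had the lowest level of these enzymes per kilobase, 0.151 CPM, and the largest change among them at FAT-55. Its CPM ran from 0.603 to 3.69 CPM on CAS FAT-20 (median 1.81), from 0.512 to 1.46 on CAS FAT-40 (median 1.02) and from 0.279 to 1.57 on CAS FAT-55 (median 0.80). The log2 changes were -0.89 ± 0.23 (adjusted p = 0.00269) and -1.05 ± 0.23 (adjusted p = 0.000588), with overlapping groups. Shmt2, which passes the serine carbon to folate in mitochondria, had a median of 33.4 CPM on CAS FAT-20 (22.1 to 38.6), 24.7 on CAS FAT-40 (17.8 to 27.8) and 23.2 on CAS FAT-55 (20.9 to 29.0). Its log2 change at FAT-40 was -0.43 ± 0.10 (adjusted p = 0.00093). Phgdh (-0.63 ± 0.16), Pck2 (-0.31 ± 0.11, the mitochondrial enzyme that makes phosphoenolpyruvate) and Psph (-0.22 ± 0.07, the last enzyme of serine synthesis) also fell at CAS FAT-40. The exception was Mthfd2, the mitochondrial methylene-tetrahydrofolate dehydrogenase, whose median of 14.3 CPM on CAS FAT-20 compared with 10.2 on CAS FAT-40, a difference of -0.34 ± 0.14 (adjusted p = 0.0577).

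Of the 6 transcription factors and stress regulators, Atf5 and Nupr1 (-0.96 ± 0.25) fell at CAS FAT-40 and none rose. Atf5, a relative of ATF4, ran from 11.8 to 24.8 CPM on CAS FAT-20 (median 15.03) and from 8.62 to 13.8 on CAS FAT-40 (median 10.42), a log2 change of -0.60 ± 0.14 (adjusted p = 0.000967). Atf4 itself did not pass the test on CAS, with medians of 174 CPM at FAT-20, 177 at FAT-40 and 172 at FAT-55. On WPI it rose from a median of 149.9 CPM to 172.5 at FAT-40 (log2 0.20 ± 0.08, adjusted p = 0.037) and 181 at FAT-55 (0.24 ± 0.08, adjusted p = 0.0096). Psat1 moved the other way on WPI at FAT-55, by -0.49 ± 0.14 (adjusted p = 0.0065).

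Eif4ebp1, which blocks the cap-binding translation factor, ran from 12.4 to 20.6 CPM on CAS FAT-20 (median 14.97) and from 8.54 to 13.2 on CAS FAT-40 (median 10.7), a log2 change of -0.56 ± 0.10 (adjusted p = 2.42e-05). Sesn2, a leucine sensor that restrains mTORC1, went the other way by 0.30 ± 0.08 (adjusted p = 0.0025), and so did Slc3a2 by 0.36 ± 0.12 (adjusted p = 0.0153). Slc7a5, the large neutral amino acid carrier that pairs with Slc3a2, fell by 0.49 ± 0.18 on the log2 scale in the same comparison. Among the 5 synthetases and the tRNA exporter Xpot, only Gars was called at CAS FAT-40 (-0.27 ± 0.07), with no overlap between the groups, while at CAS FAT-55 Aars (0.24 ± 0.08) and Sars (0.17 ± 0.06) rose. Without CAS FAT-55 replicate 11, the log2 ratio of mean levels for Sars went from 0.172 to 0.113.

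Stc2, a secreted glycoprotein, and Vldlr, a lipoprotein receptor, fell at FAT-40 on both protein sources. Stc2 had a median of 3.54 CPM on CAS FAT-20 (1.95 to 5.74), 2.40 on CAS FAT-40 (1.48 to 4.39) and 2.11 on CAS FAT-55 (1.07 to 2.94), with a log2 change at FAT-55 of -0.94 ± 0.17 (adjusted p = 4.25e-05). Vldlr had a median of 8.69 CPM on CAS FAT-20 (5.01 to 12.3) and 4.98 on CAS FAT-55 (2.64 to 8.21), a change of -0.73 ± 0.13 (adjusted p = 3.5e-05). On WPI it went from a median of 6.90 CPM (5.69 to 10.5) to 4.77 at FAT-40 (3.86 to 6.89), a change of -0.60 ± 0.13 (adjusted p = 0.000402). The jejunal members called in no comparison were Ddit4, Nars, Ppp1r15a, Slc38a2, Slc7a1, Trib3 and Xpot.

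**Figure D2:**
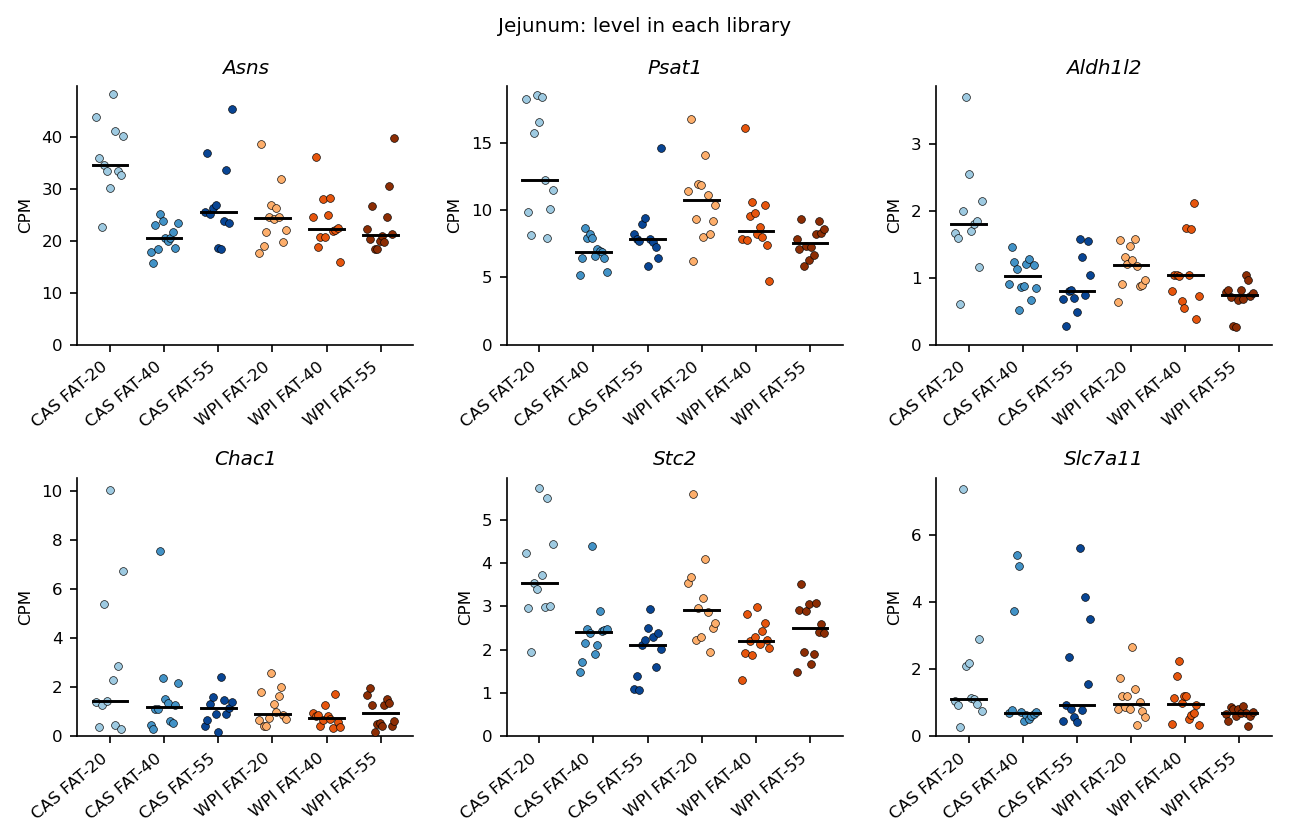
Level in CPM of 6 members in every jejunum library by diet, 1 point per library, with the group median as a line. Psat1 and Asns are highest on CAS FAT-20, while the high values of Chac1 and Slc7a11 belong to a few libraries of the CAS diets.

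On WPI, fewer members passed the test for fat level. At FAT-40, 1 rose and 3 fell, against 25.8% of all genes called (12.7% higher, 13.0% lower), and at FAT-55, 3 rose and 5 fell, against 30.8% (14.2% higher, 16.6% lower). These shares of 31 members are below the background at FAT-40 and close to it at FAT-55. With counts summed by stem 2 and 4 members were called, with no share of all genes given here for that fit. The difference between the protein sources in the FAT-55 change was called by edgeR for none of the 16992 genes (0%), and for none of the members by DESeq2. Of the members, 3 had an unadjusted p under 0.05 for it. The corresponding difference at FAT-40 was not tested.

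Between protein sources averaged over fat, 5 members were lower on WPI and none higher, which at 16.1% is near the background of 15.3% (6.5% higher, 8.83% lower). They were Phgdh (-0.30 ± 0.09), Mthfd2 (-0.28 ± 0.08), Pck2 (-0.21 ± 0.06), Chac1 (-0.88 ± 0.26) and Slc7a11 (-0.998 ± 0.25). At FAT-20 alone, 5 were lower, against 6.23% of all genes called (2.66% higher, 3.57% lower): Asns, Mthfd2, Aldh1l2, Shmt2 and Chac1. With counts summed by stem, none was called on average and 1 at FAT-20, again with no share of all genes given for that fit. With edgeR no member was called at FAT-40, where 0.571% of all genes were, and 7 members had an unadjusted p under 0.05, and DESeq2 called none either. Only Slc7a11 was called at FAT-55 (-1.51 ± 0.45, adjusted p = 0.0385), lower on WPI, against 3.7% of all genes (0.889% higher, 2.81% lower), and without CAS FAT-55 replicate 3 its adjusted p was 0.0584.

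Chac1 and Slc7a11 differed in kind from the enzymes, because a few libraries carried the difference (a point made after their values were seen). Chac1, which degrades glutathione, ran from 0.281 to 10.04 CPM on CAS FAT-20 with a median of 1.41, and from 0.396 to 2.58 on WPI FAT-20 with a median of 0.913. Slc7a11 reached 7.35 CPM on CAS FAT-20, 5.40 on CAS FAT-40 and 5.59 on CAS FAT-55, while its group medians lay between 0.676 and 1.11 CPM in all 6 diets. On WPI FAT-55 its highest library held 0.9001 CPM.

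Over the 70 jejunum libraries, with diet means removed, Slc7a11 followed the markers of B and plasma cells (r = 0.836). Its r was 0.608 with macrophage markers and 0.454 with T cell markers. Among single genes, it followed the lymphocyte chemokine receptor Cxcr4 (r = 0.879, rho = 0.774) and the follicle chemokine Cxcl13 (r = 0.847, rho = 0.751). These genes were picked after the values were seen, and each pair had a permutation p of 1e-05, the smallest that the resampling can give (adjusted p = 1.31e-05 over 17 relations). Without the 2 farthest libraries r was 0.852 and 0.815. The summed level of the 7 B and plasma cell markers had a median of 895 CPM on CAS FAT-55 (167 to 1935) and 682 on WPI FAT-55 (524 to 856). With B cell and T cell marker scores as covariates, Slc7a11 was 0.29 higher on WPI averaged over fat (adjusted p = 0.323), so its call and its direction were both lost.

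Markers of several cell types moved with fat level beside the enzymes. The summed level of 10 smooth muscle markers had medians of 1306 CPM on CAS FAT-20 and 1480 on WPI FAT-20, and 614 to 806 CPM in the 4 groups of higher fat. The mean log2 level of 7 fat cell markers was 2.53 on CAS FAT-20 and 3.19 on WPI FAT-20, and 0.49 to 0.86 in those 4 groups. From CAS FAT-20 to CAS FAT-40, the median sum of 5 enterocyte markers went from 15800 to 18170 CPM and that of 7 Paneth cell markers from 14560 to 8504 CPM, and the part of these 2 lists in the result was not tested. With smooth muscle and fat cell marker scores as covariates, the number of members called at CAS FAT-40 went from 16 to 1, which was Asns (-0.68, adjusted p = 0.0401), and at CAS FAT-55 from 16 to 5. On WPI no member was then called at either fat level, while for WPI against CAS at FAT-20 the number went from 5 to 11. Shares of all genes called with these covariates are not given here, so the shifts in number cannot be called particular to the members. Across the 70 libraries within diets, Asns had r of -0.388 with the enterocyte score, 0.25 with stem and cycling cells, 0.163 with Paneth cells, 0.116 with smooth muscle and 0.053 with fat cells. The muscle and fat cell scores entered that fit together, so for the members that lose their call, diet and the content of muscle and fat cells cannot be told apart. Vldlr, for example, changed by -0.51 at CAS FAT-40 without the covariates and by -0.18 with them.

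Neighbouring pathway genes in the jejunum did not all follow the members. Of 20 ER chaperones and XBP1 or ATF6 targets, which answer to the other arms of the unfolded protein response, 14 fell and none rose at CAS FAT-40 (70% called, against 25.1% of all genes), among them Xbp1 (-0.29 ± 0.07), Manf (-0.50 ± 0.11) and Hyou1 (-0.58 ± 0.13). Of 24 tested genes also known as ATF4 targets, 2 rose and 7 fell (37.5%), led by Fam129a (-0.83 ± 0.16). Of 15 amino acid sensing and mTORC1 regulators, 6 rose and none fell (40%), led by Rragd (0.49 ± 0.09), a small GTPase of the lysosomal nutrient complex. The shares called of the other lists, 20% to 23.1%, were below that of all genes. Of 15 kinases, subunits and regulators of eIF2, 2 rose and 1 fell, led by the haem-regulated kinase Eif2ak1 (0.43 ± 0.08). Among 15 other cytosolic synthetases, 3 fell and none rose, and of 13 tested folate and one-carbon enzymes, 2 rose and 1 fell.

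In the liver, members moved in both directions, and for fat level their counts were near the background. On CAS, 3 members rose and 7 fell at FAT-40 of 29 tested, against 30.2% of all genes called (15.8% higher, 14.4% lower). At CAS FAT-55, 5 rose and 6 fell, against 43.3% (22.6% higher, 20.7% lower). On WPI, 2 rose and none fell at FAT-40, against 6.54% (4.19% higher, 2.35% lower), and 2 rose and 6 fell at FAT-55, against 26.6% (14.6% higher, 12% lower). Averaged over fat, 2 members were higher on WPI and none lower, against 14.7% (7.1% higher, 7.56% lower). At FAT-40, 4 were higher on WPI and none lower, against 8.21% (3.85% higher, 4.37% lower). At FAT-55, 1 was higher on WPI and none lower, against 14.5% (7.07% higher, 7.43% lower). With edgeR none was called at FAT-20, where 0.512% of all genes were, and 6 had an unadjusted p under 0.05, and DESeq2 called none either. The FAT-55 change differed between the protein sources for 2 members, 1 in each direction, against 6.82% of all genes. With counts summed by identifier stem, which leaves 4 values per diet, 1 member was called at CAS FAT-40 and 9 at CAS FAT-55. In that fit none was called at WPI FAT-40 and 2 at WPI FAT-55. None was called between protein sources at FAT-40 or for the difference in the FAT-55 change. Shares of all genes called in the fit by stem are not given here.

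Vldlr rose with fat on casein, at both fat levels. It ran from 1.60 to 5.70 CPM on CAS FAT-20 (median 2.84), from 4.13 to 10.2 on CAS FAT-40 (median 7.79) and from 9.38 to 18.3 on CAS FAT-55 (median 15.2). All 11 CAS FAT-55 libraries lay above all CAS FAT-20 libraries. The log2 changes were 1.37 ± 0.35 (adjusted p = 0.00152) and 2.20 ± 0.35 (adjusted p = 7.81e-07). On WPI it ran from 1.84 to 12.3 CPM at FAT-20 (median 4.83) and from 3.97 to 14.8 at FAT-55 (median 9.36), with overlapping groups and a change of 0.64 ± 0.32 (adjusted p = 0.131). The FAT-55 change differed between the protein sources by -1.56 ± 0.47 (WPI minus CAS, adjusted p = 0.0327). That call is lost without a filter on low counts (adjusted p = 0.0616) or with counts summed by identifier stem (adjusted p = 0.343).

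Asns was low in liver, with group medians between 0.219 and 1.23 CPM, and its libraries held as few as 2 reads. On CAS it ran from 0.226 to 6.91 CPM at FAT-20 (median 0.778), from 0.208 to 1.09 at FAT-40 (median 0.317) and from 0.0773 to 0.504 at FAT-55 (median 0.219). The log2 changes were -2.25 ± 0.67 (adjusted p = 0.0075) and -2.86 ± 0.74 (adjusted p = 0.00114), the direction opposite to Vldlr. The high CAS FAT-20 values lay in stems L2B (0.778 to 3.14 CPM) and L2F (1.74 to 6.91). Stems L2C (0.282 to 0.611) and L5A (0.226 to 0.653) lay within the CAS FAT-40 range. Without CAS FAT-20 replicate 7, the log2 ratio of mean levels at CAS FAT-40 went from -2.232 to -1.757. On WPI the FAT-55 change was -1.83 ± 0.61 (adjusted p = 0.0197).

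The WPI FAT-40 group split in 2 for Asns. In 7 libraries it lay between 0.0897 and 0.853 CPM, and in the other 5 between 8.17 and 16.4 CPM, with nothing between them. Those 5 were the 3 mice of identifier stem M8D and 2 of the 3 mice of stem M8F. Vldlr in the 5 libraries lay between 0.399 and 4.43 CPM, and in the 7 libraries between 6.10 and 16.2 CPM. The group difference of Asns from CAS FAT-40, 3.79 ± 0.65 on the log2 scale (adjusted p = 7.54e-05), rests on these 5 mice, and with counts summed by stem it had an adjusted p of 0.056. One of the 5 was the library with pancreatic RNA, but the acinar marker sum of the other 11 did not exceed 33.3 CPM, and without that library the difference was 3.62 (adjusted p = 0.00023).

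Within single diets, Asns and Vldlr were inversely related in 5 of 6 liver groups, with r of -0.70 on CAS FAT-20, -0.24 on CAS FAT-40, 0.39 on CAS FAT-55, -0.83 on WPI FAT-20, -0.89 on WPI FAT-40 and -0.38 on WPI FAT-55 (11 or 12 libraries each, described without a test). Since WPI FAT-40 falls into 2 clusters its r depends on that split, and over the other 5 diets, with diet means removed, r was -0.581. In the jejunum the same pair had r = 0.182 over 70 libraries (rho = 0.086, permutation p = 0.164, two-sided). In the hypothalamus the pair was also inversely related, with r = -0.587 over 67 libraries (rho = -0.429, permutation p = 0.0001, two-sided). There r was -0.297 without the libraries that stood apart, and 30.6% of all genes had an r with Asns of -0.315 or lower. Of the marker lists in that tissue, oligodendrocytes had the r largest in size with each gene, 0.473 for Asns and -0.614 for Vldlr. The part of cell content in the relation was not tested.

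**Figure D3:**
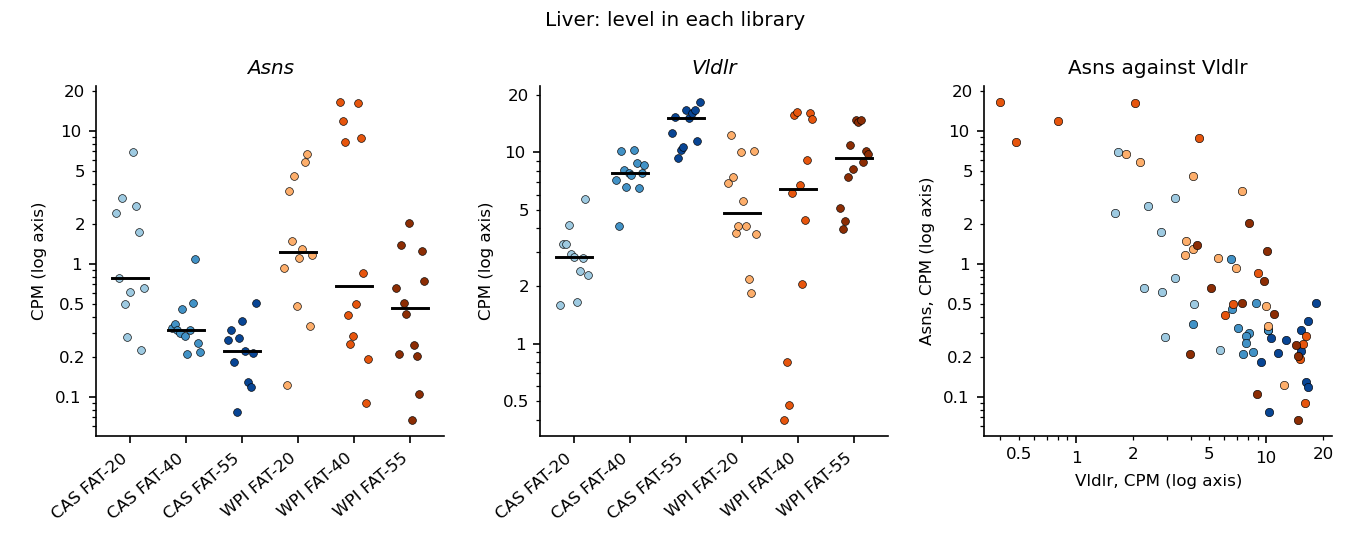
Asns and Vldlr in liver libraries by diet on log axes (CPM), and the pair plotted against each other, 1 point per library. Vldlr climbs with fat on CAS, and 5 WPI FAT-40 libraries with Asns from 8.17 to 16.4 CPM have Vldlr from 0.399 to 4.43 CPM.

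Atf4 itself fell with fat on casein in the liver and did not pass the test for fat level on WPI. It ran from 60.6 to 88.3 CPM on CAS FAT-20 (median 76.3), from 56.9 to 81.8 on CAS FAT-40 (median 63.8) and from 49.4 to 62.5 on CAS FAT-55 (median 57.3). All 11 CAS FAT-55 libraries were below the CAS FAT-20 median, and the log2 change was -0.42 ± 0.07 (adjusted p = 2.17e-06). On WPI the medians were 75.5, 78.1 and 73.2 CPM, and the FAT-55 change was -0.05 ± 0.07 with a 95% interval from -0.18 to 0.09.

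At FAT-55, Atf4 was higher on WPI than on CAS in 10 of 12 libraries against the CAS median (0.34 ± 0.07, adjusted p = 0.000551). The difference between the protein sources in the FAT-55 change was 0.38 ± 0.10 (adjusted p = 0.0141), and 0.38 with an adjusted p of 0.165 when counts were summed by stem. Fat cell markers also differed between these groups, with summed medians of 175 CPM on CAS FAT-55 and 56.8 CPM on WPI FAT-55. Their part in the result was not tested.

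In the jejunum Shmt2 fell with fat on CAS and was not called for fat level on WPI. In the liver it rose at both fat levels on CAS and at WPI FAT-55, and was not called at WPI FAT-40. Its median went from 198 CPM on CAS FAT-20 (169 to 272) to 246 on CAS FAT-40 (197 to 290.4) and 236 on CAS FAT-55 (219.8 to 273). On WPI it went from 194 CPM at FAT-20 (158 to 235) to 268 at FAT-55 (244 to 377), and these 2 groups did not overlap. The log2 change there was 0.49 ± 0.07 (adjusted p = 5.99e-07). The change on CAS was 0.31 ± 0.08 at FAT-40 and 0.28 ± 0.08 at FAT-55, both called.

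Among the transporters, Slc38a2, a sodium-coupled carrier of small neutral amino acids, fell at FAT-55. It ran from 182 to 688 CPM on CAS FAT-20 (median 419.5) and from 172 to 357 on CAS FAT-55 (median 241), all 11 libraries being below the FAT-20 median (-0.89 ± 0.20, adjusted p = 0.000157). On WPI the median went from 482 to 318 CPM (-0.48 ± 0.19, adjusted p = 0.0481). Slc7a5 fell at CAS FAT-40, from a median of 3.62 to 2.87 CPM (-0.40 ± 0.13), and at WPI FAT-55, from 3.93 to 3.05 CPM (-0.43 ± 0.12). Slc7a1, a carrier of arginine and lysine, rose at CAS FAT-55 from a median of 0.873 CPM (0.565 to 1.70) to 1.39 (0.812 to 3.18), a change of 0.69 ± 0.20 (adjusted p = 0.00346).

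Of the stress regulators, Ppp1r15a, which directs the phosphatase that reverses eIF2alpha phosphorylation, fell from a median of 21.7 CPM on CAS FAT-20 (11.1 to 32.5) to 16.7 at FAT-40 (12.6 to 21.1) and 14.3 at FAT-55 (11.2 to 19.2). Its change at FAT-55 was -0.56 ± 0.12 (adjusted p = 0.000225), with overlapping groups. Atf5 fell by 0.67 ± 0.23 at CAS FAT-40, 0.59 ± 0.24 at CAS FAT-55 and 0.65 ± 0.23 at WPI FAT-55, all called. Trib3, a pseudokinase that feeds back on ATF4, fell at CAS FAT-40 (-0.70 ± 0.27, adjusted p = 0.0432).

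Nupr1, a small stress-induced chromatin protein, was called higher on WPI at FAT-40 (0.97 ± 0.33, adjusted p = 0.04998). That value rests on the library with pancreatic RNA, where Nupr1 stood at 10.99 CPM, and without it the difference was -0.06 (adjusted p = 0.913). At CAS FAT-55 it rose from a median of 0.679 to 1.17 CPM (0.97 ± 0.35, adjusted p = 0.0207). Of the synthetases, Cars (0.33 ± 0.10) and Nars (0.17 ± 0.04) rose at WPI FAT-40 and Aars (0.17 ± 0.05) at WPI FAT-55, and none was called on CAS. Chac1, Ddit3, Ddit4, Gars, Mthfd2, Pck2, Phgdh, Psat1, Sars, Slc3a2 and Xpot were called in no liver comparison.

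**Figure D4:**
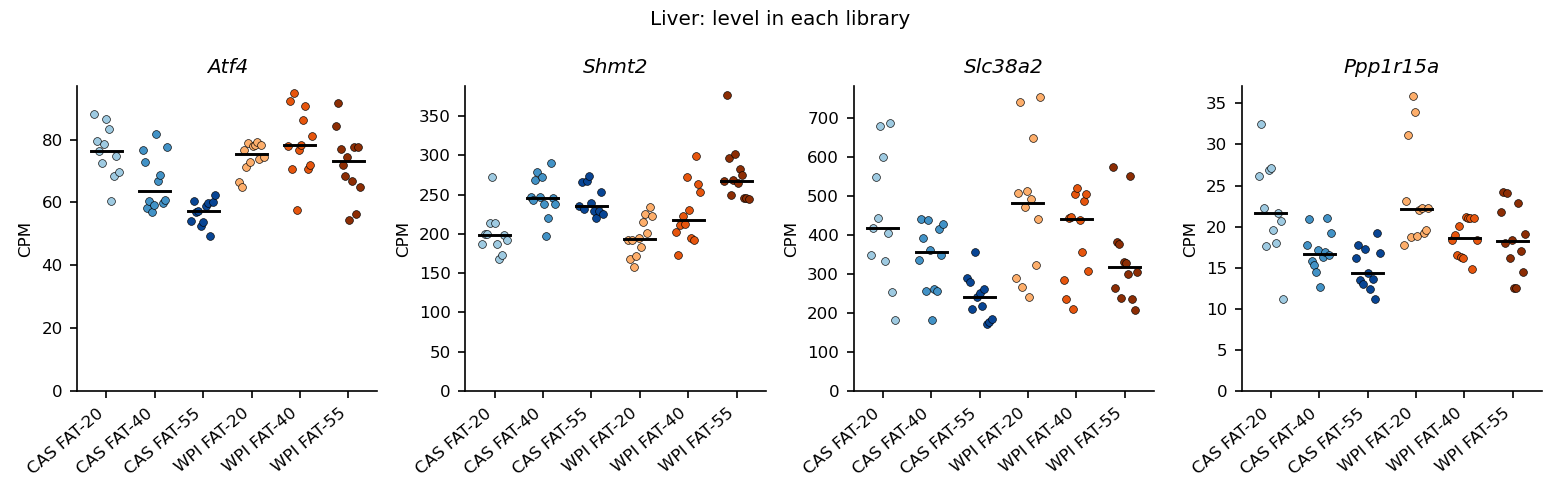
Level in CPM of 4 members in every liver library by diet, 1 point per library, with the group median as a line. Atf4 and Slc38a2 step down with fat on CAS, and Shmt2 is higher at WPI FAT-55 than at WPI FAT-20 with no overlap.

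At WPI FAT-55 the chaperone list moved in opposite directions in jejunum and liver. In the jejunum 11 of 20 fell and none rose (55% called, against 30.8% of all genes), while at WPI FAT-40 1 rose and none fell. In the liver 15 of 20 ER chaperones and XBP1 or ATF6 targets rose at WPI FAT-55 and none fell (75% called, against 26.6% of all genes). They were led by Derl3 (2.59 ± 0.43), which moves misfolded proteins out of the ER, Sec61b (0.42 ± 0.07) and Pdia3 (0.45 ± 0.09). Of 15 other folate and one-carbon enzymes, 8 rose and none fell at CAS FAT-40 (53.3%, against 30.2% of all genes), led by Aldh1l1 (0.91 ± 0.13, adjusted p = 1.51e-07), the cytosolic counterpart of Aldh1l2. Among 25 tested genes also known as ATF4 targets, 7 rose and 3 fell at CAS FAT-55, which at 40% is below the 43.3% of all genes. Of these, Mthfd1l, which makes formate in mitochondria, had a median of 2.70 CPM on CAS FAT-20 (0.778 to 4.79) and 5.77 on CAS FAT-55 (2.92 to 9.12), but 3.91 on WPI FAT-20 (1.32 to 5.85) and 1.93 on WPI FAT-55 (0.919 to 3.67). The difference between the protein sources in its FAT-55 change was -1.98 ± 0.41 (adjusted p = 0.00218).

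In the hypothalamus, values are reads divided by the authors' size factors. There 10 of the 40 member calls were kept without the 11 libraries that stood apart, 9 of them on FAT-20 diets, in a fit that also had fewer samples. With mean log values by stem none of the 40 was kept. On WPI, 14 members rose and 4 fell at FAT-40, near the background of 52.5% of all genes (38.0% higher, 14.6% lower), and 12 rose and 2 fell at FAT-55, against 35.3% (29.5% higher, 5.84% lower). Without the 11 libraries that stood apart, 2 and 7 members were called, and shares of all genes in that fit are not given here. On CAS, none was called at FAT-40 by limma (7 had an unadjusted p under 0.05, and edgeR on the recovered reads called 4), where 0.236% of all genes were, and 2 fell and none rose at FAT-55, against 2.33% (1.27% higher, 1.06% lower). Without the 11 libraries none was called at either fat level on CAS.

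Slc7a11 kept its call at WPI FAT-40 without those libraries. It ran from 375 to 773 scaled reads on WPI FAT-20 (median 699) and from 809 to 1111 on WPI FAT-40 (median 891), without overlap. The log2 change was 0.53 ± 0.12 (adjusted p = 0.000859), and 0.50 (adjusted p = 0.00239) without the libraries that stood apart. Psph shows the contrary case. It reached 452 scaled reads on both FAT-20 diets, with medians of 176 on CAS and 168 on WPI, and its change at WPI FAT-40 went from -0.57 ± 0.16 to -0.06 (adjusted p = 0.737) without those libraries. Vldlr ran from 758 to 1373 scaled reads on WPI FAT-20 (median 1211) and from 1242 to 1766 on WPI FAT-40 (median 1388), and its change went from 0.36 ± 0.08 to 0.135 (adjusted p = 0.067).

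Aars, from 2108 to 3953 scaled reads on WPI FAT-20 (median 3484) and from 3575 to 4289 on WPI FAT-40 (median 3816), went from a change of 0.28 ± 0.07 to 0.067 (adjusted p = 0.314). Its change at WPI FAT-55, 0.295 ± 0.07, remained called without them at 0.142 (adjusted p = 0.00981), yet was 0.001 after a trend on GC content and length was removed. Leaving out single libraries also moved 2 log2 ratios of mean levels: that of Cars at WPI FAT-40 went from 0.111 to 0.072 without WPI FAT-20 replicate 4, and that of Gars at WPI FAT-55 from -0.216 to -0.140 without WPI FAT-20 replicate 3.

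Between protein sources, Atf4 was the member called on average (0.13 ± 0.03, adjusted p = 0.0205, against 2.15% of all genes, 0.324% higher and 1.83% lower). At FAT-55, Atf4, Atf5 and Shmt2 were higher on WPI, 3 of 31 against 5.92% of all genes called (2.05% higher, 3.87% lower). Without the libraries that stood apart 10 were called, all higher, and the share of all genes called in that fit is not given here. The tissue pieces of these groups also differed in markers, with a median sum of 6 thalamus markers of 9845 scaled reads on CAS FAT-55 and 13030 on WPI FAT-55, and of 6 hypothalamic neuron markers of 10210 and 6203. Their part in the result was not tested. Atf4 ran from 1280 to 1535 scaled reads on CAS FAT-55 (median 1413) and from 1490 to 1826 on WPI FAT-55 (median 1593). All 12 WPI libraries were above the CAS median, and the log2 difference was 0.23 ± 0.06 (adjusted p = 0.00448), or 0.205 (adjusted p = 0.00133) without the libraries that stood apart. With mean log values per stem it had an adjusted p of 0.204.

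The difference between the protein sources in the FAT-55 change was called for Atf5 (0.40 ± 0.10, adjusted p = 0.00838) and Slc3a2 (0.26 ± 0.07, adjusted p = 0.0267), 2 of 31 and both higher, against 3.5% of all genes (1.83% higher, 1.67% lower). For Atf5 it stayed called without the libraries that stood apart (0.33, adjusted p = 0.0414), and for Slc3a2 it did not (0.13, adjusted p = 0.167). With limma none was called between protein sources at FAT-20 (1.01% of all genes, 8 members with an unadjusted p under 0.05) or at FAT-40 (0%, 0 members with an unadjusted p under 0.05), and edgeR on the recovered reads, and limma without the libraries that stood apart, called none in either.

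These FAT-55 results sit beside a group-wide difference. Cebpb, a partner of ATF4 on composite elements and itself listed as an ATF4 target, ran from 5.54 to 19.1 scaled reads in the 12 WPI FAT-55 libraries, and its lowest value over the other 5 diets was 39.97. Its log2 difference from CAS FAT-55 was -3.16 ± 0.17 (adjusted p = 3.14e-24). In liver the Cebpb medians lay between 28.4 and 39.7 CPM over the 6 diets, with WPI FAT-55 the lowest of them. The low GC-rich genes of that group and the diet cannot be told apart. After a trend on GC content and length was removed, Atf4 at FAT-55 was 0.15 higher on WPI (adjusted p = 0.0433) and Atf5 0.40 higher (adjusted p = 3.54e-06).

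Members also varied together between mice on the same diet. After diet means were removed, 15 of the other 30 members were positively related to Asns in the jejunum and none negatively (adjusted p under 0.05 over the 30 relations, permutation of values within diets, two-sided). Every such r was 0.275 or higher, and of all 16991 other genes tested there 7.1% had an r that high and 5.5% one as far below 0. In the liver, 7 of 28 members were positively and 4 negatively related to Asns, and of all genes 11.1% and 10.1% reached the smallest of those r (0.298 in size). In the hypothalamus, 11 of 30 were positively and 7 negatively related, while of all genes 30.6% reached that size (0.315) in each direction, so the members there were near the background. In the jejunum the closest were Atf5 (r = 0.694, rho = 0.587), Cars (r = 0.666, rho = 0.595), Nars (r = 0.649, rho = 0.592) and Mthfd2 (r = 0.637, rho = 0.552), each with an adjusted p of 5e-05. Without the 2 libraries farthest from the Asns median these r values were 0.606, 0.606, 0.570 and 0.586. The relation of the Atf4 transcript to Asns did not pass the test in jejunum (r = 0.014, rho = -0.094, adjusted p = 0.942) or liver (r = 0.262, rho = 0.24, adjusted p = 0.0916) and did in hypothalamus (r = 0.496, rho = 0.505, adjusted p = 0.00051), where it was 0.439 without the libraries that stood apart. Psat1, Gars and Sars were positively related to Asns in all 3 tissues, but Sars in liver had r = 0.298, and 0.103 once WPI FAT-40 was left out. Each liver relation called was weaker in size without that group. Cars went from 0.327 to 0.024, Aldh1l2 from 0.347 to 0.103, Shmt2 from -0.358 to -0.114 and Xpot from -0.403 to -0.164. Psat1 went from 0.332 to 0.253, Eif4ebp1 from 0.473 to 0.296, Atf5 from 0.523 to 0.299 and Sesn2 from -0.362 to -0.301. Gars kept 0.451 of 0.569 and Vldlr -0.581 of -0.756. In the hypothalamus Phgdh was closest to Asns (r = 0.728, rho = 0.602, adjusted p = 0.00015), with 0.509 without the libraries that stood apart, and Gars kept 0.653 of 0.713. Some of these libraries share a stem, and they differ in depth and cell content.

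Ddit4, an inhibitor of mTORC1 that answers to stress and to glucocorticoid hormone, was called in no diet comparison of any tissue, yet it varied widely between mice (it was singled out after its values were seen). Liver levels ran from 2.36 CPM on CAS FAT-20 to 91.6 CPM on WPI FAT-20, and the range within WPI FAT-20 alone was 2.37 to 91.6 CPM. The mouse with the highest liver value of its diet also had the highest jejunum value in 4 of 6 diets. On CAS FAT-20 that mouse had 35.5 CPM in liver, 65.8 CPM in jejunum (diet median 34.3) and 1759 scaled reads in hypothalamus (diet median 927 among mice with all 3 tissues). On WPI FAT-20 the highest liver, at 91.6 CPM, came with 53.9 CPM in jejunum and 2042 scaled reads in hypothalamus, the highest there.

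With diet means removed, Ddit4 in 2 tissues of the same mouse was related at r = 0.829 for jejunum and liver (rho = 0.789, n = 70), r = 0.761 for jejunum and hypothalamus (rho = 0.716, n = 63) and r = 0.827 for liver and hypothalamus (rho = 0.796, n = 63). Each permutation p was 1e-05, the smallest that the resampling can give, with adjusted p of 0.00029, 0.00031 and 0.00029 over the 29, 31 and 29 members compared. Without the 2 mice farthest from the median, r was 0.809, 0.737 and 0.805. Of deviations from the stem mean, r was 0.874, 0.782 and 0.811. Without the mice whose hypothalamus library stood apart, the 2 relations with hypothalamus were 0.755 and 0.796.

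The other members showed little of this, with median r over the members of 0.098, -0.021 and 0.052 for the 3 pairs. Only Trib3 (r = 0.376, adjusted p = 0.023) and Nars (r = 0.332, adjusted p = 0.0457) were also called by r, both between jejunum and liver. By rho, Trib3 stayed called (0.359, adjusted p = 0.0432) and Nars did not (0.272, adjusted p = 0.136). Of deviations from the stem mean, r was 0.3 for Trib3 and 0.088 for Nars. Among all genes compared, Ddit4 ranked 19 of 13965, 2 of 13267 and 1 of 12202 by r, and the median gene had r of 0.094, -0.01 and 0.009. 5 genes known as targets of the glucocorticoid receptor were looked up after the Ddit4 values were seen. In the same order of pairs, Fkbp5 ranked 4, 4 and 10, Tsc22d3 18, 5 and 3, and Zbtb16 11, 12 and 14. Per2, also a clock gene, ranked 1, 51 and 235, and Sgk1 ranked 1740 (r = 0.302), 1 and 472 (r = 0.28), so these 2 were not high in every pair. Within a tissue Ddit4 followed Tsc22d3 with r of 0.615 in jejunum, 0.829 in liver and 0.826 in hypothalamus (rho of 0.633, 0.849 and 0.835), each with a permutation p of 1e-05. With Fkbp5 the r values were 0.659, 0.754 and 0.517, and with Per2 they were 0.463, 0.485 and 0.224, the last with an adjusted p of 0.145 by r and 0.00521 by rho (0.36).

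**Figure D5:**
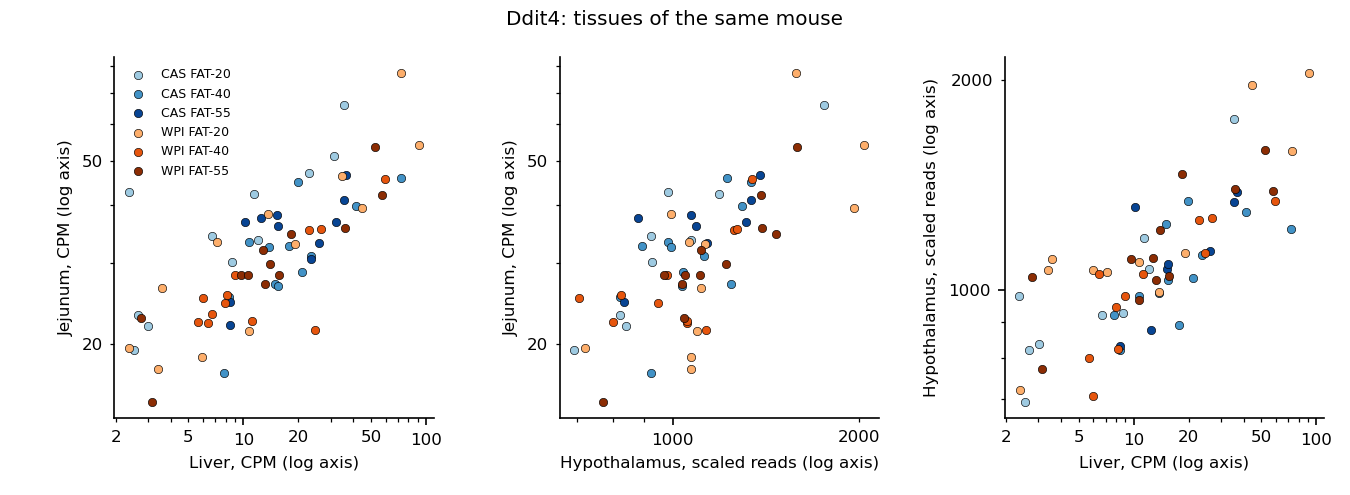
Ddit4 in pairs of tissues from the same mouse, 1 point per mouse, coloured by diet, with CPM for jejunum and liver and scaled reads for hypothalamus. Levels in the tissues of a mouse rise together, with r of 0.829, 0.761 and 0.827 after diet means were removed.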

How the data were processed

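Bulk RNA was sequenced from jejunum, liver and hypothalamus of mice on 6 diets, 207 libraries in 18 groups. Jejunum and liver values are read counts per gene, as deposited by the authors. The hypothalamus table is a deposited signal, read counts divided by a size factor per library, and 100.0% of its positive values came back as whole reads (within 0.05) once multiplied by that factor. Per the submitters' processing notes, the work used cutadapt, FastQC, Trim Galore 0.61, STAR, DESeq2 1.24.0 and build GRCm38. Rows that name no gene held 3.45% to 8.0% of entries each and were left out.

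Counts were fitted with edgeR 4.0.16 (quasi-likelihood F test, TMM scaling, filterByExpr with a minimum count of 10 and total of 15, 1 coefficient per diet). Hypothalamus values were fitted with limma 3.58.1 (trend) on log2(value + 1), which understates changes of low genes, for genes at 10 or more in at least 10 libraries. The p-values were Benjamini-Hochberg adjusted over all genes tested, for 9 comparisons per tissue, with a threshold of 0.05. The spread given after ± is the SE for fold changes and the SD for levels. Correlations use log2 values with diet means removed and 100000 permutations within diets, two-sided. CPM per kilobase uses exon lengths of the GRCm38 annotation. The main edgeR and limma fits were tested on simulated data for WPI against CAS at FAT-55, and the other fits were not. The simulated libraries were independent, so that test did not cover mice that share a stem.

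Full values by group were given for up to 8 members per tissue with the smallest adjusted p, and for a few more picked after their values were seen; up to 3 genes were named of each pathway list, by smallest adjusted p. Other fits changed the test (DESeq2 1.42.0), scaling, filter, pseudocount, marker covariates, a GC and length trend, or summed libraries by identifier stem. The members and the lists were chosen with earlier results of these data known.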

Additional observations from a re-analysis of the deposited data

Results flagged for a closer look

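Among the 10 hypothalamus libraries of CAS FAT-20, 9 members had a library far from the others, with a gap to its neighbour above Dixon's 95% critical value for the group's range. Atf4 was low at 1265 scaled reads in replicate 9, and Ppp1r15a stood at 175 in replicate 2. Replicate 6 held Psph at 452.4, Gars at 3490, Sars at 7927 and Nars at 8575 scaled reads. Replicate 7 held Pck2 at 426.1, Ddit4 at 1759 and Eif4ebp1 at 43.42 scaled reads. Replicates 6 and 7 are among the libraries that stood apart over all genes. Only this group, with 31 members, was small enough for the rule, and chance marks about 1 in 20 such sets of values.

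The FAT-55 change differed between the protein sources for 4 members, by the test of the difference itself (WPI minus CAS, on the log2 scale). In liver it was -1.562 for Vldlr and 0.376 for Atf4. In hypothalamus it was 0.259 for Slc3a2 and 0.4 for Atf5.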

How the results depend on the processing

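In jejunum and liver, DESeq2 left all 55 and 40 member calls in place, and edgeR with median-of-ratios scaling left 55 and 39. Summing counts by identifier stem left 29 and 13, and no filter on low counts left 45 and 29. In the hypothalamus, other pseudocounts left all 40 calls, no filter 36, a removed GC and length trend 22, edgeR on recovered reads 18, leaving out the libraries that stood apart 10, and mean log values by stem none. Stems leave 4 values per diet, so fewer samples were compared. The cause of the other shifts was not tested.

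Counts of called members that moved by over 1.5 times follow, with those not listed staying within that ratio. Shares of all genes called in these other fits are not given here, so the counts have no background beside them. With smooth muscle and fat cell scores as covariates, jejunum gave 8 for WPI against CAS averaged over fat, 11 at FAT-20, 0 at FAT-55, then 1 at FAT-40 and 5 at FAT-55 on CAS, and 0 and 0 on WPI. With B and T cell scores, it gave 8 for WPI against CAS at FAT-20, 0 at FAT-55, and 1 and 4 for FAT-40 and FAT-55 on WPI. Summed by stem, it gave 0 on average, 1 at FAT-20, 0 at FAT-55, and 2 and 4 on WPI. With no filter it gave 1 at FAT-20, 0 at FAT-55 and 2 for FAT-40 on WPI. Without jejunum CAS FAT-55 replicate 3, the library with pancreatic markers (46.4 CPM, the highest such sum in jejunum), it gave 0 for WPI against CAS at FAT-55.

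Liver summed by stem gave 0 for WPI against CAS at FAT-40, 1 for FAT-40 on CAS, 0 and 2 for FAT-40 and FAT-55 on WPI and 0 for the difference in the FAT-55 change. With no filter it gave 2 at FAT-55 between protein sources, 6 for FAT-40 on CAS and 1 for the difference. DESeq2 gave 2 at FAT-55 between protein sources, and so did the fit without liver WPI FAT-40 replicate 2 (2).

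Hypothalamus with the GC and length trend removed gave 0 on average between protein sources, 1 and 9 for FAT-40 and FAT-55 on CAS, 7 for FAT-55 on WPI and 1 for the difference. On recovered reads edgeR gave 1 at FAT-55 between protein sources, 4 and 5 on CAS, 6 for FAT-55 on WPI and 0 for the difference. Without the libraries that stood apart it gave 10 at FAT-55 between protein sources, 0 for FAT-55 on CAS, 2 and 7 on WPI and 4 for the difference. By stem means every hypothalamus count that was above 0 became 0.

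Directions turned for jejunal Slc7a11 with B and T cell scores (0.29 averaged over fat, 0.296 at FAT-55) and for liver Nupr1 at FAT-40 without WPI FAT-40 replicate 2 (-0.059, and as a log2 ratio of means -0.065, against up to 1.086 without another library). In the hypothalamus on WPI, the GC and length trend turned Cars (-0.102), Aars (-0.069) and Pck2 (-0.176) at FAT-40 and Cars (-0.031), Vldlr (-0.009) and Pck2 (-0.116) at FAT-55. Leaving out the libraries that stood apart turned Slc7a5 (-0.038) and Sars (0.011) at FAT-40. The fits with B and T cell scores, without single libraries and without the libraries that stood apart were chosen after seeing the data. No paired analysis was possible because replicate numbers were given in accession order and each mouse ate a single diet.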
